A study of Mus musculus with 8 samples.

Results

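Respiratory complex I (NADH:ubiquinone oxidoreductase) was examined through its nuclear-encoded subunit genes, taken as the rows of the deposited expression table whose symbol is Nduf followed by a, b, c, s or v and a number. This name rule found 37 of 24054 genes. Of these, 35 encode subunits of complex I, while Ndufa4 is now assigned to complex IV and Ndufa4l2 is its paralog, known as a gene induced by hypoxia. The rule does not take Ndufab1, the acyl carrier protein of the complex, which is given beside the others.

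The study asked what the transcription factor IRF4 does in skeletal muscle, and soleus (SOL) RNA was sequenced from 4 MI4KO and 4 flox mice, with 1 library per mouse. MI4KO mice carry floxed Irf4 alleles and a Cre that is driven from Myl1, a gene of skeletal muscle fibers, so that other cell types of the muscle keep the gene. The flox controls carry the same floxed alleles without Cre. All 8 mice were male C57BL/6 animals on a high-fat diet by the sample labels, whereas the study's text leaves the diet of these animals unnamed, and their age is not given in the sources used here. Within a group, mice are called 1 to 4, starting from the lowest animal number in the labels.

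Complex I takes electrons from NADH and passes them along a flavin and a chain of iron-sulfur clusters to ubiquinone, and it couples this transfer to pumping protons across the inner mitochondrial membrane. Its peripheral arm holds the N module, which oxidizes NADH, and the Q module, which reduces ubiquinone. The membrane arm holds the proton pumps, whose core is encoded in mitochondrial DNA. SOL is an oxidative muscle rich in mitochondria, and complex I is one of the entry points of electrons into its respiratory chain.

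Values are TMM-normalized CPM (read counts scaled to a common library size), which the authors computed for each gene and mouse. Between 13417512 and 16384565 reads per mouse stood behind them, and 3 reads on a gene correspond to values of 0.181 to 0.225. Every one of the 37 genes had at least 88 reads in every mouse, the lowest being Ndufa4l2, so all 37 entered the test. Irf4 itself was at 0.686, 1.46, 1.58 and 1.68 in flox mice 1 to 4 and at 0.725, 0.84, 0.266 and 1.03 in MI4KO mice 1 to 4, and the groups overlapped. The log2 fold change of Irf4 was -0.45 (SE 0.20, unadjusted p = 0.0402 and adjusted p = 1.0 by limma). Myh7, the slow myosin heavy chain that marks soleus, was between 11079 and 14577 in all 8 mice. The libraries of flox mouse 1 and MI4KO mouse 3 stood apart from the rest. In flox mouse 1 the summed value of 16 liver markers was 219, against 6.53 to 16.7 in the other mice. In MI4KO mouse 3 the summed value of 6 neutrophil markers was 4.32, against 0.146 to 0.423 in the others, and 3 of these 6 markers were under 3 reads in every mouse. This mouse also had the highest Fkbp5 (159, against 19.4 to 31.2 in the others) and Ppp1r3c (1128, against 222 to 293). The main comparisons are given with and without these mice.

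Promoter sequences were looked at as a property that the name rule did not use. RefSeq windows of 250 bases before to 50 bases after the transcription start (GRCm38.p6) matched 32 of the 37 genes with 34 windows. The letters AAGATGGC, the core of the YY1 motif, were in 7 of the 34 windows (20.6%), against 2.75% of all 32851 windows on either strand. All 7 matches were on the sense strand, began 22 to 38 bases after the start site, and held the annotated start codon in their ATG. A sense match after the start was in 0.86% of all windows. The 30 bases around each match are shown because this shared element is found in subunits of all 4 parts of the complex, with the core in capitals, written 5′ to 3′ on the strand of the gene.
Ndufa3 (chr7:3617384-3617413, plus strand): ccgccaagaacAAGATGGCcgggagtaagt
Ndufa9 (chr6:126849097-126849126, minus strand): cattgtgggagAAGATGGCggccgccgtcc
Ndufb8 (chr19:44555393-44555422, minus strand): tgaaccgcggagaaggtgAAGATGGCtgcc
Ndufc1 (chr3:51408915-51408944, minus strand): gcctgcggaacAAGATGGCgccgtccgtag
Ndufs4 (chr13:114388045-114388074, minus strand): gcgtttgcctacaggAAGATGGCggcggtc
Ndufs6 (chr13:73328433-73328462, minus strand): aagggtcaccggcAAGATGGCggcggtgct
Ndufs7 (chr10:80249462-80249491, plus strand): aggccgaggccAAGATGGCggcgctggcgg

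The interferon-stimulated response element, to which IRF proteins bind, was searched on both strands because Irf4 is the deleted gene. Only its short core GAAANNGAA was used, so a match need not hold the whole element. This core was in 5 of the 34 windows (14.7%) and in 8.56% of all windows. The matches lay 135 to 203 bases before the start site and are shown with the matched letters in capitals on the strand of the gene. For Ndufa9, Ndufs3 and Ndufs6 the match is on the other strand, so that the capitals show its reverse complement.
Ndufa9 (chr6:126849260-126849289, minus strand): cctcctctttTTCTTTTTCtctcctctgct
Ndufb8 (chr19:44555621-44555650, minus strand): ggttgaaggcGAAAAGGAAtacagtaactt
Ndufs3 (chr2:90904905-90904934, minus strand): cgcccaccctTTCCCTTTCtctcaccggtg
Ndufs6 (chr13:73328646-73328675, minus strand): acagcgcatcTTCAGTTTCcgtccccccac
Ndufv1 (chr19:4012884-4012913, minus strand): ggtttactagGAAAAGGAAgagtctccgag

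A match is a description of these letters and not a binding site. Among the other motifs, each searched on both strands, the NRF1 core GCGCATGC was in 8.82% of the windows of these genes (Ndufa6, Ndufa8 and Ndufa11) and in 2.71% of all windows. The ETS core CCGGAAG, which GABP binds, was in 11.8% against 8.86%, and the Sp1 letters GGGCGG were in 44.1% against 35.7%. The ERR letters TCAAGGTCA were in none of the 34 windows and in 0.42% of all, and the looser TNAAGGTCA, which includes them, was in 2.94% (Ndufb4) against 1.28%. A TATA box (TATAAA) was in 14.7% against 13.6%, and a CCAAT box (CCAAT) in 29.4% against 37.4%. The median GC content was 59.0% in these windows and 52.7% in all windows.

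Levels were compared between genes only as values per kilobase of the longest protein-coding transcript. Ndufa4 was the highest, at 964 ± 49.5 CPM per kilobase in flox mice and 998 ± 107 in MI4KO mice (SD, n = 4 each, as for all levels). It was followed by Ndufb9, a subunit of the distal membrane arm, at 900.3 ± 37.0 in flox and 923 ± 90.6 in MI4KO mice, and these 2 genes differed by less than the sum of their SDs. Ndufa4l2 was the lowest at 9.94 ± 1.25, beneath Ndufb2 at 36.1 ± 1.98 and Ndufc1 at 105 ± 11.0. The low places of Ndufb2 and Ndufc1 rest on the choice of transcript, since the longest transcript of Ndufb2 has 4371 bases. With the shortest principal transcript as length, a choice made after seeing the data, Ndufb2 moved from rank 36 to rank 16 and Ndufc1 from rank 35 to rank 10, while Ndufa4, Ndufb9 and Ndufa4l2 stayed at ranks 1, 2 and 37. Between the modules, the median flox level per kilobase was 243 in the N module (10 genes), 325 in the Q module (6 genes), 263 in the proximal membrane arm (9 genes) and 326 in the distal membrane arm (10 genes). These medians rest on the longest transcript too, and so do the distances between them. With the principal transcript, Ndufc1 of the proximal arm went from 105 to 416 in flox mice, and Ndufb8 of the distal arm from 274 to 863.

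**Figure D1:**
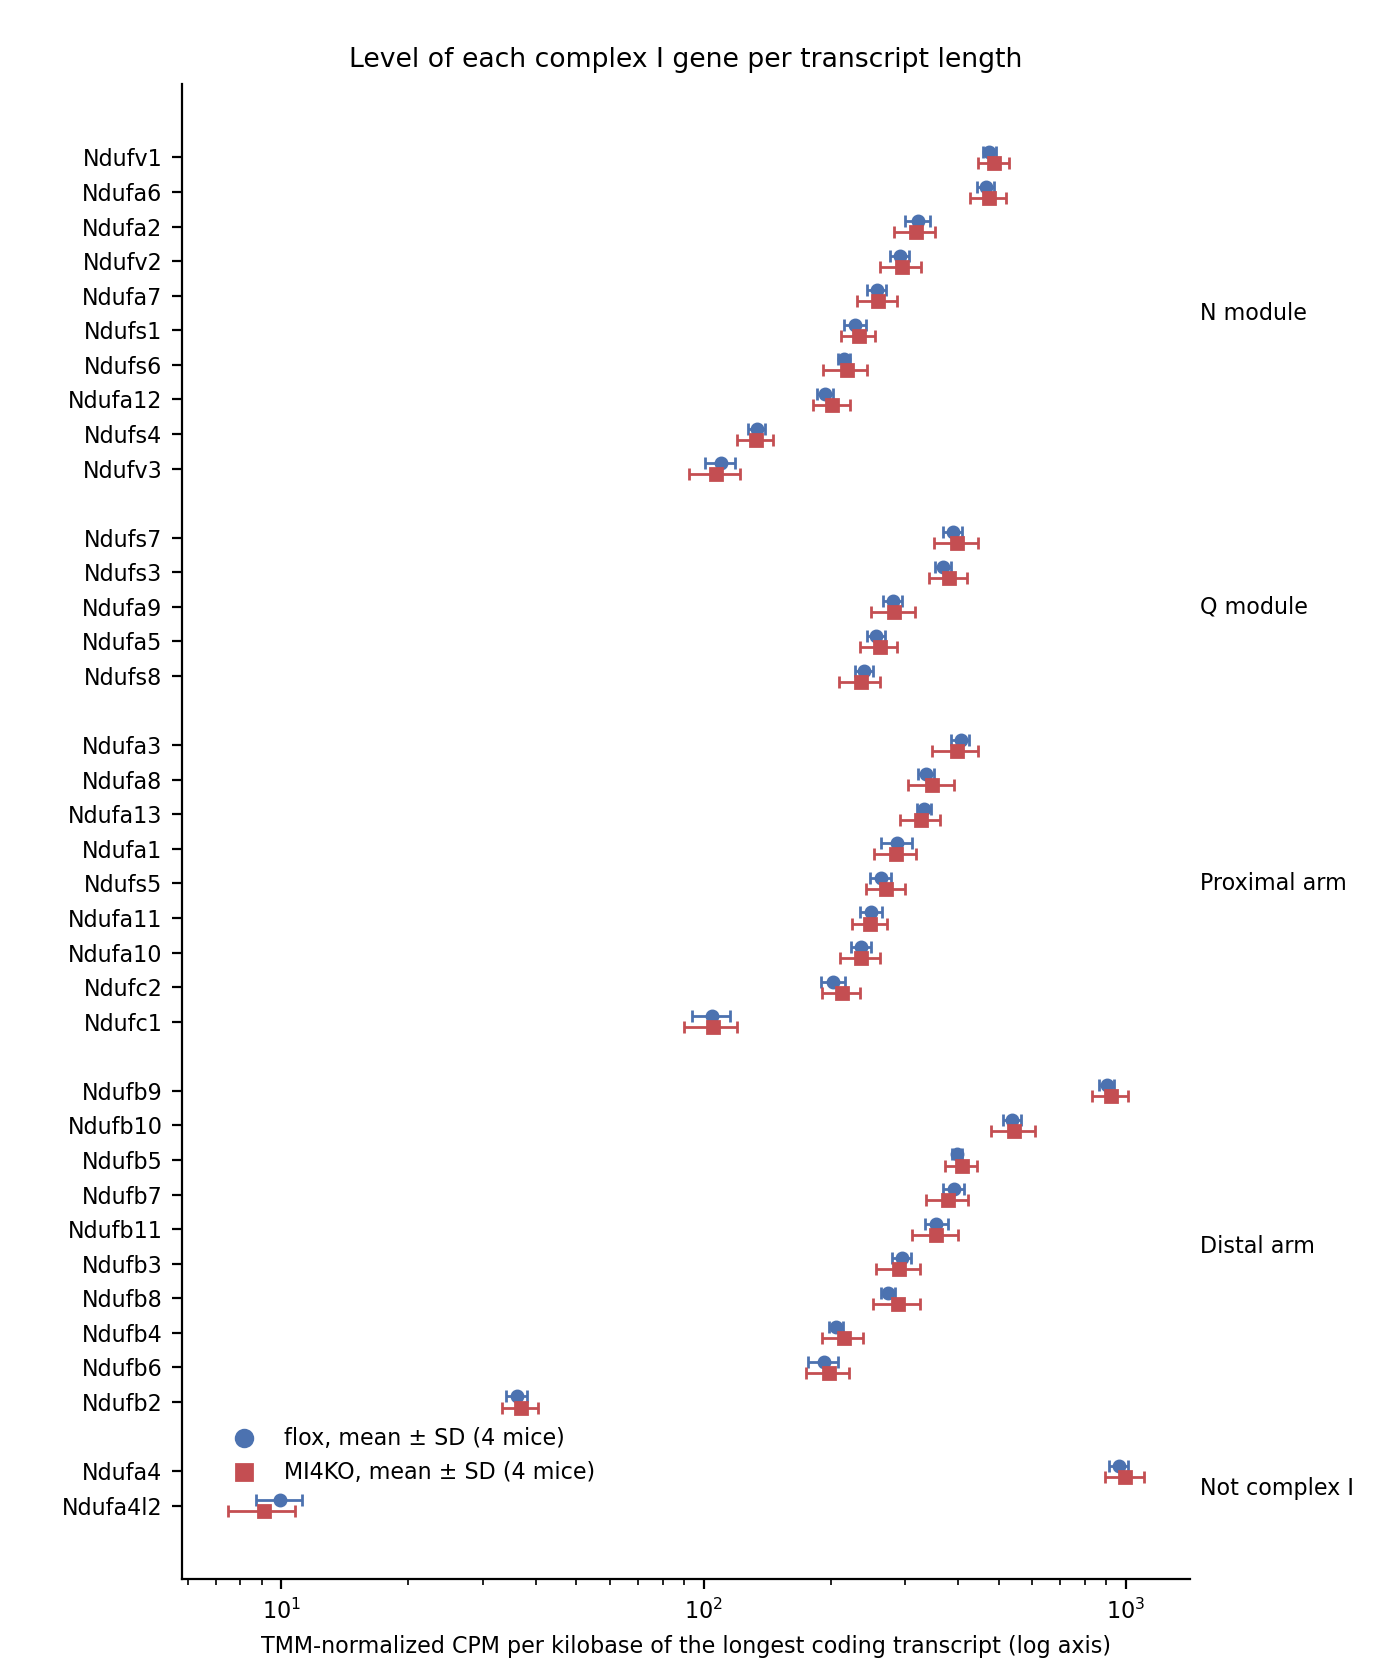
Level of 36 of the genes as TMM-normalized CPM per kilobase of its longest protein-coding transcript (x axis, log scale), grouped by part of the complex, with the mean ± SD of 4 flox mice (blue circles) and 4 MI4KO mice (red squares). The 2 groups lie almost on top of each other for every gene shown, while the genes span from 9.94 (Ndufa4l2) to 964 (Ndufa4) in flox mice.

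None of the 37 genes passed the tests of a difference between MI4KO and flox mice with all 8 mice. Their 95% intervals, each for 1 gene on the TMM scale, lay within a 1.5-fold change. With limma, 0 of the 37 genes reached an unadjusted p under 0.05, where 3.36% of the 11865 genes tested did, and the smallest p was 0.383 (Ndufa4l2, which is no subunit) and 0.446 among the 35 subunits (Ndufc2). None passed both that limit and a 1.5-fold change, as 0.219% of all genes did, and none had an adjusted p under 0.05, as was the case for 0.0% of all genes. edgeR's quasi-likelihood test and DESeq2 on the recovered reads also gave 0 of 37 with an unadjusted p under 0.05, where 3.06% and 2.09% of all genes had one. With limma it was also 0 of 37 under median-of-ratios scaling, under library-size scaling and without MI4KO mouse 4, where 3.33%, 3.32% and 5.21% of all genes had one. For no gene of the 37 did all MI4KO values lie above or below all flox values, which was so for 2.07% of all genes tested. The median log2 fold change was 0.014 over the 37 genes and -0.015 over all genes tested, with 23 genes above 0 and 14 below. Scaling by library size alone gave 35 above and 2 below (median 0.058, where all genes were at 0.026), and median-of-ratios scaling gave 29 above and 8 below (median 0.034). Every fold change was smaller than its standard error, which was between 0.07 and 0.13. The 95% intervals lay within a 1.5-fold change for all 37 genes and within a 1.25-fold change for 36, all but Ndufa4l2. Without Ndufa4l2, their outer bounds were -0.25 and 0.27 on the log2 scale. Because SOL was sequenced as whole tissue, fewer cells of a type and less RNA per cell cannot be told apart.

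**Figure D2:**
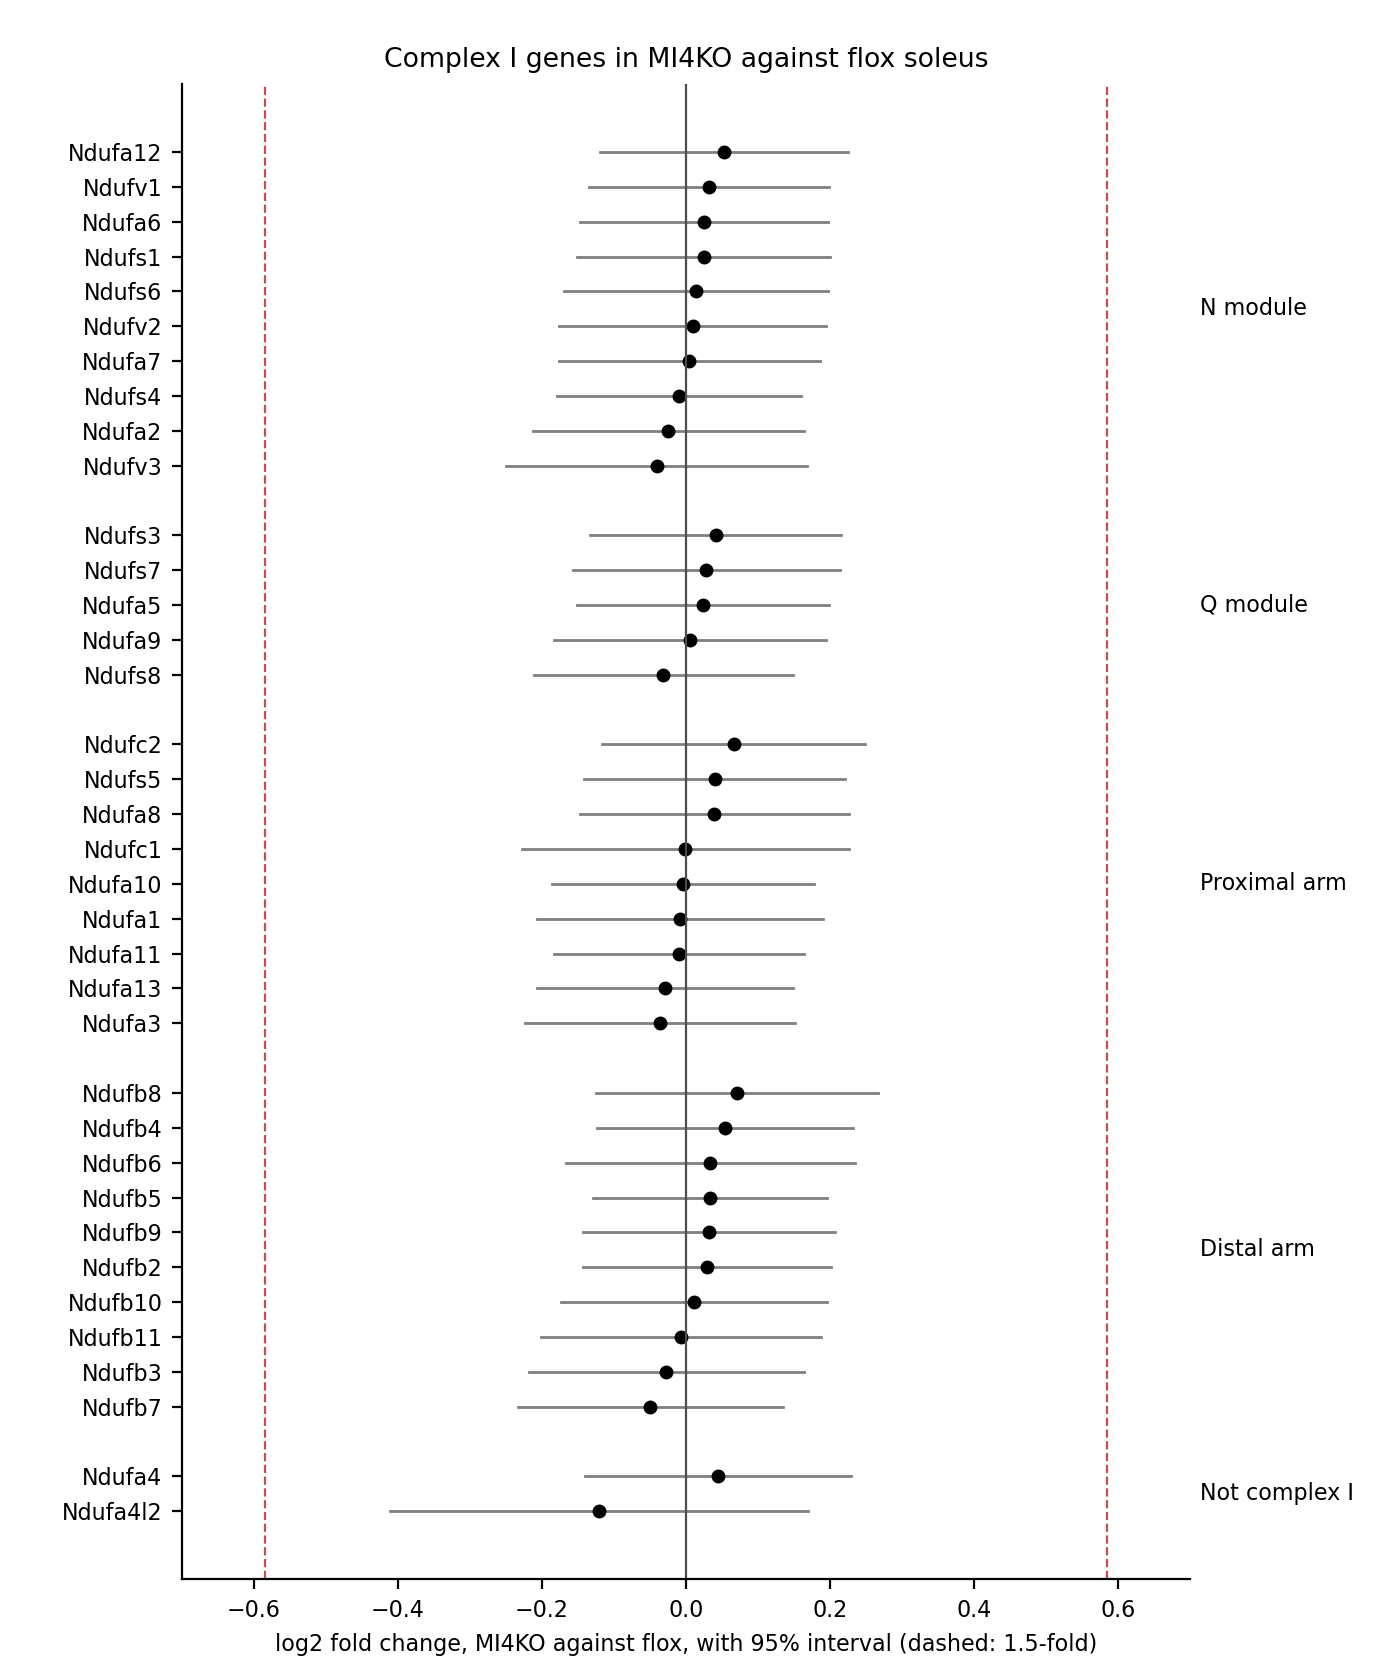
Log2 fold change of 36 of the genes in MI4KO against flox mice (x axis, black points) with its 95% interval from limma (grey lines), grouped by part of the complex. Every interval spans 0 and stays inside the dashed lines at a 1.5-fold change.

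The core subunits that carry the redox chain were taken first. Ndufv1, which binds NADH and the flavin, was at 787, 762, 827 and 782 CPM in flox mice 1 to 4 and at 821, 761, 899 and 756 in MI4KO mice 1 to 4 (log2 fold change 0.03, SE 0.08, unadjusted p = 0.68 and adjusted p = 1.0 by limma). Ndufv2, an iron-sulfur subunit next to it, was at 470.0, 511, 519.5 and 477 in flox mice and at 511, 443, 572 and 471 in MI4KO mice (log2 fold change 0.01, SE 0.09). Ndufs1, the largest subunit of the N module and a holder of several iron-sulfur clusters, was at 598, 580.2, 660.5 and 596 in flox mice and at 592, 562, 689.8 and 638 in MI4KO mice (log2 fold change 0.02, SE 0.08). In each of these 3 genes MI4KO mouse 3 was the highest of the 8 mice, and the lowest was another MI4KO mouse, so that the flox values lay inside the MI4KO range.

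The Q module core read much the same. Ndufs3, a core subunit of the same arm, was at 366, 384, 406 and 387 in flox mice 1 to 4 and at 393, 375, 458 and 368 in MI4KO mice 1 to 4 (log2 fold change 0.04, SE 0.08). MI4KO mouse 3 was again above all other mice, and the remaining 3 MI4KO mice lay within the flox range for Ndufs3. Ndufs7, which holds the last iron-sulfur cluster before ubiquinone, was at 369.5, 382, 412 and 369 in flox and at 375, 377, 460.1 and 357 in MI4KO mice (log2 fold change 0.03, SE 0.09). Ndufs8, another iron-sulfur subunit, was at 225, 250.1, 249 and 240.4 in flox and at 225, 222, 277 and 224 in MI4KO mice (log2 fold change -0.03, SE 0.08). For Ndufs8, 3 MI4KO mice lay just below the lowest flox mouse and MI4KO mouse 3 lay above all flox mice. Over these 6 core subunits the exact two-sided permutation p was between 0.714 and 0.886, where 4 mice against 4 allow no p below 0.0286.

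**Figure D3:**
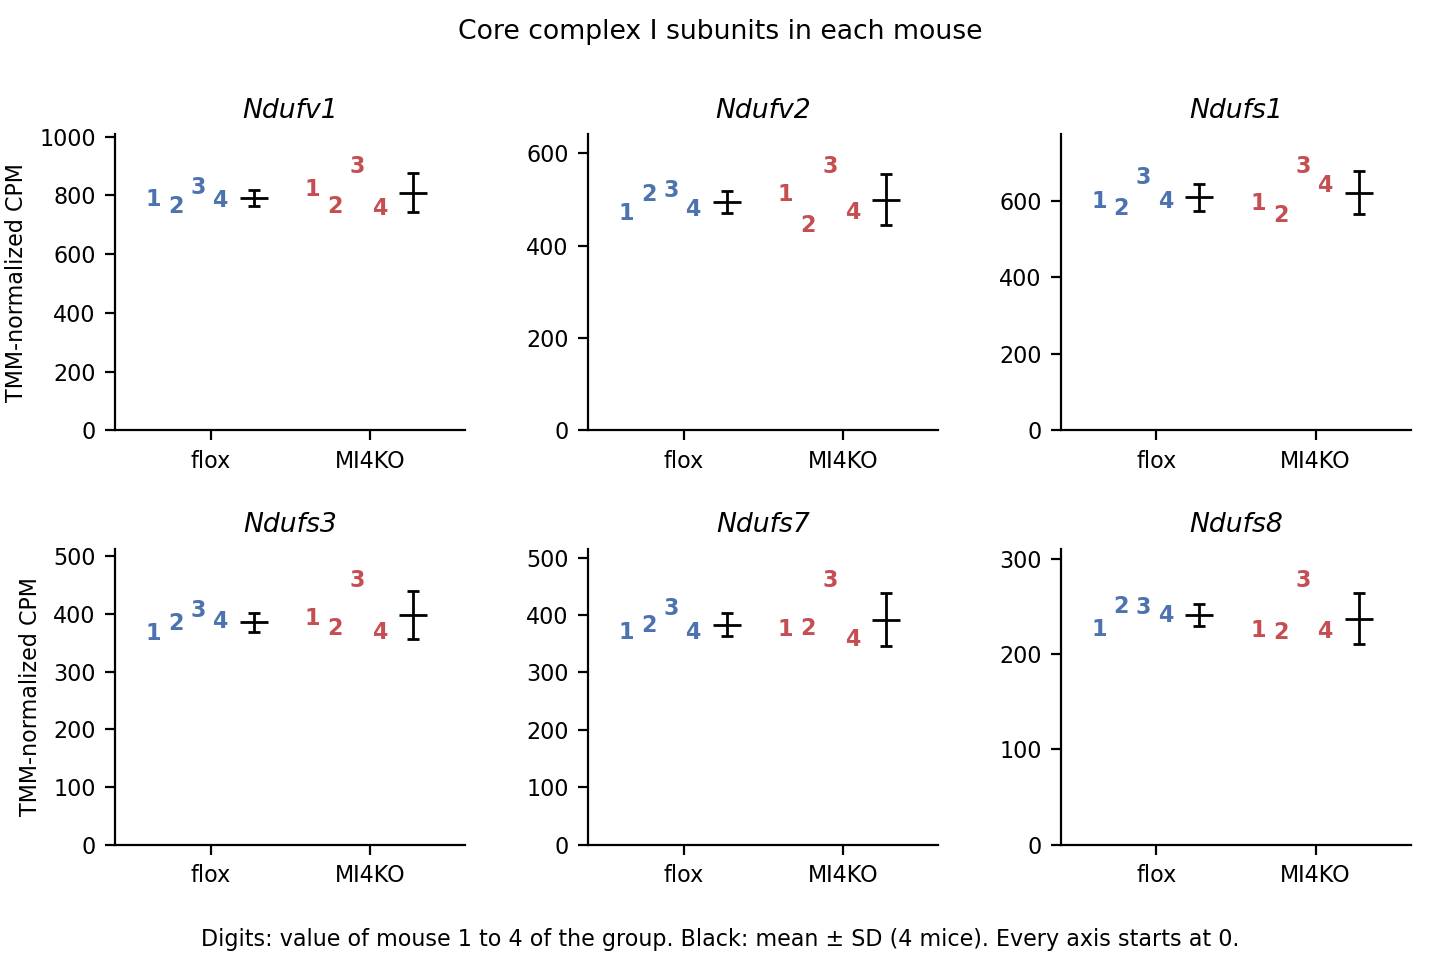
TMM-normalized CPM (y axis, from 0) of 6 nuclear core subunits in each mouse, with blue digits for flox mice 1 to 4, red digits for MI4KO mice 1 to 4 and black marks for the mean ± SD of 4 mice. MI4KO mouse 3 is the top value in all 6 panels. The other MI4KO mice lie within or below the flox range.

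By module, the median log2 fold change was 0.01 in the N module (7 of 10 genes above 0), 0.02 in the Q module (5 of 6) and 0.03 in the distal membrane arm (7 of 10). It was -0.00 in the proximal membrane arm (3 of 9). Without MI4KO mouse 3 these medians were -0.058, -0.061, -0.032 and -0.078 in the same order, all below 0. The genes farthest above 0 were accessory subunits of the membrane arm. Ndufb8, of the distal arm, was at 557, 585, 603 and 603 in flox mice 1 to 4 and at 691, 563, 684 and 541 in MI4KO mice 1 to 4 (log2 fold change 0.07, SE 0.09, exact two-sided permutation p = 0.457). Ndufc2, of the proximal arm, was at 129, 149, 142 and 134 in flox and at 152, 137, 163 and 129 in MI4KO mice (log2 fold change 0.07, SE 0.08). Ndufb4, of the distal arm, was at 190.2, 205, 208 and 198 in flox and at 216, 190.0, 238 and 191 in MI4KO mice (log2 fold change 0.05, SE 0.08). In all 3 genes MI4KO mice 1 and 3 lay above every flox mouse, while MI4KO mice 2 and 4 lay within or below the flox range.

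The genes farthest below 0 were Ndufa4l2, Ndufb7 and Ndufv3. Ndufa4l2 was at 8.73, 9.23, 8.25 and 10.9 in flox mice 1 to 4 and at 6.38, 9.18, 9.97 and 8.52 in MI4KO mice 1 to 4 (log2 fold change -0.12, SE 0.13, exact two-sided permutation p = 0.486). Ndufb7, of the distal arm, was at 224, 249, 256 and 247 in flox and at 230.5, 229, 274 and 212 in MI4KO mice (log2 fold change -0.05, SE 0.08). Ndufv3, an accessory subunit of the N module, was at 153, 176, 187 and 178 in flox and at 158, 159, 204 and 156 in MI4KO mice (log2 fold change -0.04, SE 0.10). The groups overlapped in each, and in Ndufb7 and Ndufv3 MI4KO mouse 3 was the highest of all mice. Of the genes that set the ends of the order of levels, Ndufa4 had a log2 fold change of 0.04 (SE 0.09), Ndufb9 of 0.03 (SE 0.08), Ndufb2 of 0.03 (SE 0.08) and Ndufc1 of -0.00 (SE 0.10).

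Ndufa4 was at 551, 598, 623 and 581 in flox mice 1 to 4 and at 636, 567, 688 and 545 in MI4KO mice 1 to 4. Ndufb9 was at 611, 619, 669.6 and 636 in flox and at 662, 602, 735 and 599 in MI4KO mice. In both genes MI4KO mouse 3 was the highest and MI4KO mouse 4 the lowest. Ndufb2 was at 147, 159, 169 and 156 in flox and at 160.4, 151, 184 and 150.3 in MI4KO mice, and Ndufc1 was at 112, 144, 138 and 129 in flox and at 130.0, 120.2, 158 and 116 in MI4KO mice. These had their lowest value in flox mouse 1 and their highest in MI4KO mouse 3.

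The 37 genes moved together from mouse to mouse. In MI4KO mouse 3 all 37 lay above their own mean over the 8 mice (median log2 deviation 0.21). There 34 of them (91.9%) had their highest value, as did 30.9% of all genes tested. In flox mouse 3 the median was 0.06, with 36 of 37 above their mean, and in flox mouse 2 it was 0.03, with 28 above. In MI4KO mouse 4 only Ndufs1 lay above its mean (median -0.12), in flox mouse 1 none did (median -0.10), and in MI4KO mouse 2 the number was 2 (median -0.07). Flox mouse 4 and MI4KO mouse 1 lay near 0, at -0.01 and 0.00, with 14 and 19 genes above. The median deviation of all genes tested was 0.07 in MI4KO mouse 3, where 63.1% of them lay above their mean, and 0.01 in flox mouse 1 and -0.01 in MI4KO mouse 4. It was 0.05 in flox mouse 3 (67.4% above their mean) and -0.06 in MI4KO mouse 2 (30.9% above). The size of these shifts depended on the scaling. The median for MI4KO mouse 3 was 0.14 with median-of-ratios scaling and 0.08 with library-size scaling, where 37 and 36 genes were still above their mean, and flox mouse 3 went to -0.039 with library-size scaling. MI4KO mouse 2 went from -0.074 to -0.012 with median-of-ratios scaling and to 0.050 with library-size scaling, where 33 of 37 genes lay above their mean. Flox mouse 1 and MI4KO mouse 4 stayed below 0 under both, and MI4KO mouse 3 above.

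**Figure D4:**
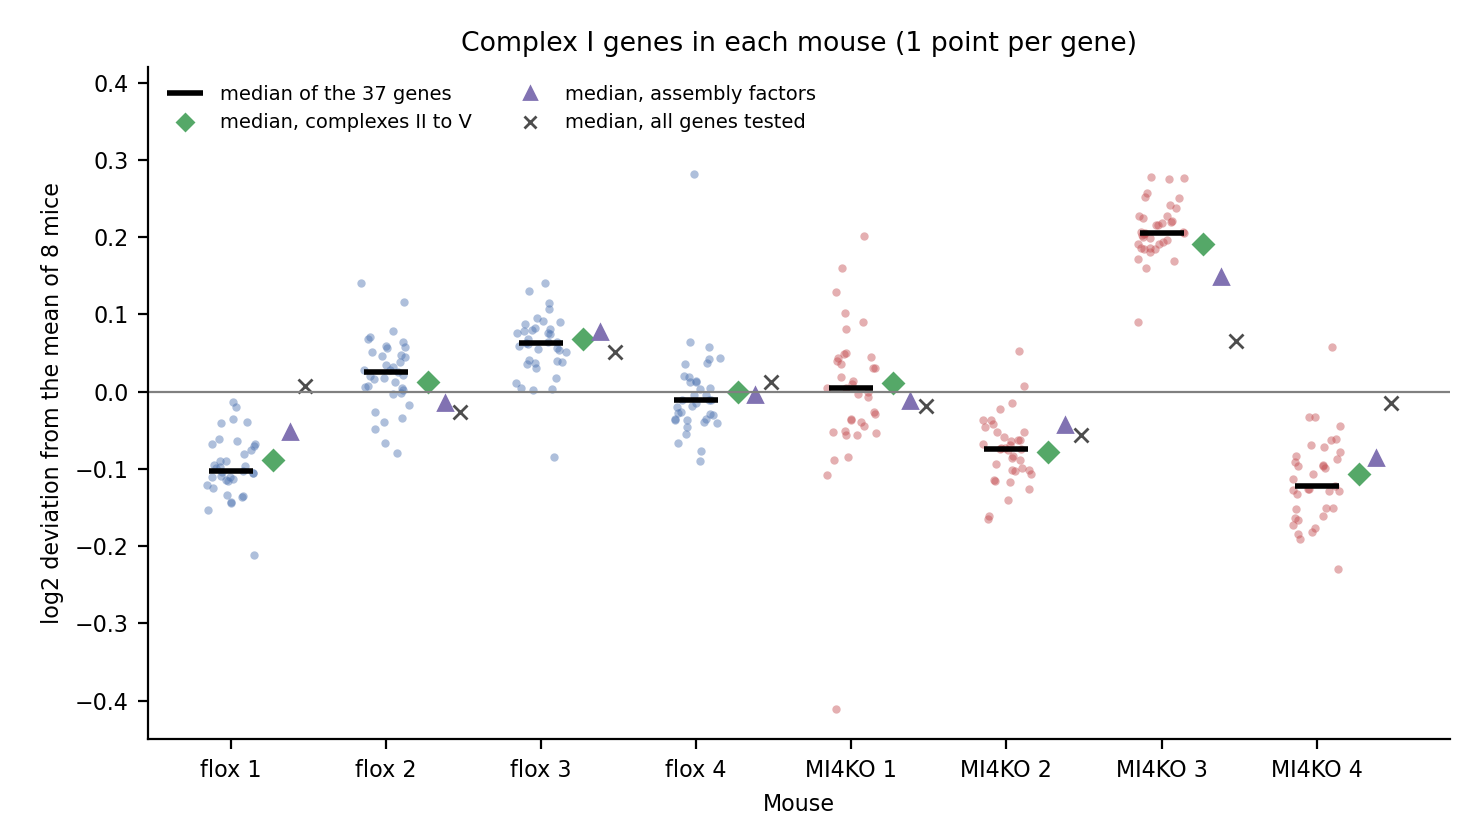
Log2 deviation of each of the 37 genes from its mean over 8 mice (y axis) in each mouse (x axis), with flox mice in blue, MI4KO mice in red and a black bar at the median. Green diamonds, purple triangles and grey crosses mark the medians of complexes II to V, of assembly factors and of all genes tested, and the green medians lie close to the black bars in every mouse, from 0.19 in MI4KO mouse 3 to -0.11 in MI4KO mouse 4.

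Summed over the 35 subunits, complex I transcripts were at 10768, 11497, 11932 and 11341 CPM in flox mice 1 to 4 and at 11509, 10757, 13253 and 10689 in MI4KO mice 1 to 4. As a share of all values of the mouse they were 1.07%, 1.19%, 1.11% and 1.11% in flox and 1.18%, 1.17%, 1.22% and 1.11% in MI4KO mice. By this share MI4KO mouse 3 was again the highest, and flox mouse 1 was the lowest in place of MI4KO mouse 4.

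The SD over 8 mice on the log2 scale had a median of 0.115 over the 36 genes other than Ndufa4l2, and 999 other genes within their range of values had a median of 0.108. Once the median shift of the 37 genes was taken out of each mouse, the median SD of these 36 genes was 0.041, where counting error alone gives 0.024. Relative to the median of the 37 genes in the same mouse, the difference between MI4KO and flox means ran from -0.13 (Ndufa4l2) to 0.06 (Ndufb8) on the log2 scale. For none of the 37 genes did these relative values separate the groups, against 1.40% of all genes tested. This relative measure was added after seeing the data.

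The same per-mouse pattern was in other genes of the respiratory chain. Among 41 genes of complexes II to V, 0 had an unadjusted p under 0.05, and their median log2 fold change was 0.01, from -0.09 (Cox5b) to 0.07 (Cox8a), both subunits of complex IV. Without MI4KO mouse 3 that median was -0.051. Their median deviation was 0.19 in MI4KO mouse 3 (41 of 41 above their mean) and -0.09 in flox mouse 1 (3 of 41) and -0.11 in MI4KO mouse 4 (1 of 41). Assembly factors, which help to build complex I without being part of it, had 17 of 18 listed genes in the table. At an unadjusted p under 0.05 there was none among these 17, with a median of 0.01 and a range from -0.08 (Tmem261, listed as Dmac1) to 0.16 (Ndufaf4, SE 0.09). Their deviation was 0.15 in MI4KO mouse 3 and -0.05 in flox mouse 1. Ndufab1 was at 259 ± 13.2 in flox and 259.8 ± 26.0 in MI4KO mice (SD, n = 4 each), and its log2 fold change was -0.00. Under the names searched, no values were found for the 7 subunits that mitochondrial DNA encodes. The distal-arm subunit Ndufb1 had none either, so these were not analysed.

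Of 9 regulators of mitochondrial genes, 0 had an unadjusted p under 0.05, and log2 fold changes ran from -0.27 (Ppargc1b, SE 0.15) to 0.38 (Ppargc1a, SE 0.32). Ppargc1a, the coactivator PGC-1α that drives mitochondrial biogenesis, was at 76.7, 28.5, 37.7 and 32.9 in flox mice 1 to 4 and at 45.6, 35.1, 101 and 48.8 in MI4KO mice 1 to 4. Without flox mouse 1 the log2 fold change of Ppargc1a was 0.68 (unadjusted p = 0.0287 and adjusted p = 0.999 by limma), a call that 3.71% of all genes reached, and without both mice it was 0.37 (unadjusted p = 0.0133 and adjusted p = 0.894), where 5.36% did. Its highest values were in MI4KO mouse 3 and flox mouse 1, where the median log2 deviation of the 37 genes was 0.21 and -0.10. The lowest median deviation of the 37 genes, -0.12, was in MI4KO mouse 4. Yy1, whose motif is shown above, was between 34.0 and 40.0 in all 8 mice (log2 fold change 0.03, SE 0.07), and Esrra, the orphan nuclear receptor ERRα, was between 207 and 260.0 (log2 fold change 0.01, SE 0.08).

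Fiber markers were set beside the shifts. On the TMM scale, the summed value of 8 fast-fiber markers was 61683 in MI4KO mouse 3, the highest of all mice (the others 46017 to 57397), and 5 of the 8 were highest there. Myh4, the fast myosin heavy chain of type IIB fibers, was not highest there and varied widely within both groups, at 1807, 2496, 34.5 and 35.4 in flox mice 1 to 4 and at 278, 831, 55.8 and 2174 in MI4KO mice 1 to 4. The 7 slow-fiber markers summed to 35776 in that mouse, within the range of the others (32196 to 42353), and they were lowest in MI4KO mouse 4, at 32196. The rank of the fast-fiber markers depended on the scaling. Their median log2 deviation was 0.188 in MI4KO mouse 3 and 0.078 in MI4KO mouse 4 on the TMM scale. With library-size scaling it was 0.065 in MI4KO mouse 3 and 0.127 in MI4KO mouse 4. White and brown adipocyte markers (8 genes) summed to 30.8 to 66.6, blood markers (5 genes) to 207 to 346, endothelial markers (4 genes) to 226 to 367 and tendon and fibroblast markers (4 genes) to 47.1 to 91.7, and MI4KO mouse 3 was at neither end of these ranges. One adipocyte marker was under 3 reads in every mouse. The part of fiber type, of neutrophil or liver RNA or of the library scale in the shifts of the 37 genes was not tested.

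Leaving out single mice showed how far the comparison rested on them. Without MI4KO mouse 3, the median log2 fold change of the 37 genes was -0.058, with 2 genes above 0 and 35 below, and the smallest p was 0.0942. Ndufa3 and Ndufs8 then did not overlap between the groups, 5.41% of the 37 genes against 5.24% of all genes. Without flox mouse 1 the median was -0.013, with 12 above 0. Without both mice, all 37 genes were below 0 (median -0.082, where all genes were at -0.044), and 14 of them (37.8%) did not overlap between the groups, against 10.8% of all genes. Ndufb7 (log2 fold change -0.16, unadjusted p = 0.0399) and Ndufv3 (-0.19, unadjusted p = 0.0167) then passed the unadjusted limit of limma, 2 of 37 genes where 5.36% of all genes did, and the smallest adjusted p was 0.894. Of these 2 mice, flox mouse 1 had the lowest median deviation of the flox mice and MI4KO mouse 3 the highest of the MI4KO mice. Leaving them out therefore lowers the fold changes by itself. The 37 genes moved together, so counts of them do not stand for independent results. The animal numbers in the labels fall into 2 ranges. Within the lower range (1 flox and 2 MI4KO mice) the median difference was 0.05, and within the higher range (3 flox and 2 MI4KO mice) it was 0.03.

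**Figure D5:**
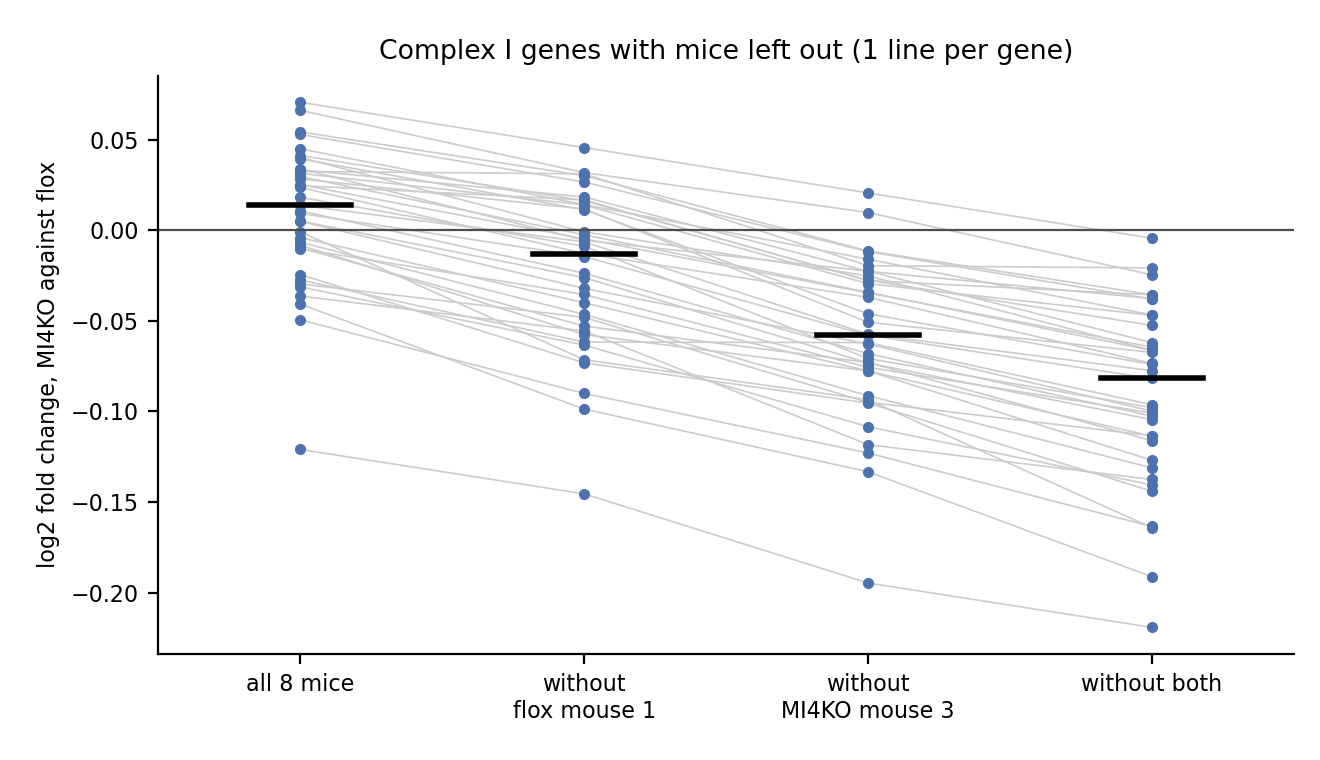
Log2 fold change of each of the 37 genes in MI4KO against flox mice (y axis, 1 grey line per gene, black bar at the median) with all 8 mice and with flox mouse 1, MI4KO mouse 3 or both left out (x axis). The median goes from 0.014 with all mice to -0.082 without both, and all 37 genes are then below 0. For these genes flox mouse 1 has the lowest flox median and MI4KO mouse 3 the highest MI4KO median.

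Positions are from GENCODE M21 on GRCm38, and the 37 genes lie on 15 chromosomes. The closest pair is Ndufs8 (chr19:3908863-3912774) and Ndufv1 (chr19:4007384-4012806), both on the minus strand and 94610 bases apart. Reads can be shared with near-identical copies or with an overlapping annotated gene. In 18 genes no stretch of 50 bases, the read length, was found in another annotated gene, while Ndufs5 (21.7%), Ndufb4 (18.3%), Ndufa12 (17.7%), Ndufs3 (16.1%) and Ndufb9 (15.6%) shared over 10% of theirs, so their values are less certain. Of these, only Ndufs5 shared stretches with a gene that has values of its own here (BC002163). Ndufb9 shared its stretches with Gm49356, which overlaps it on the same strand.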

How the data were processed

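SOL RNA of 4 MI4KO and 4 flox mice was analysed, grouped by the condition in the labels. The authors prepared stranded poly(A) libraries, read single 50-base ends, and used bcl2fastq 2.17, Bowtie2 2.1.0 on UCSC transcripts, RSEM 1.2.15 and TMM scaling, and the submitters' processing notes name the mm10 build. The signal that the authors deposited is 1 TMM-normalized CPM for each gene in each mouse. The authors also deposited a fold-change score, p-values and an FDR, which were not used. Whole reads were recovered for 100% of non-zero values (tolerance 0.01). RSEM assigns shared reads by estimation.

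After adding a pseudocount of 1 and taking log2, limma 3.58.1 (R 4.3.3) was fitted with its trend option to the 11865 genes that reached a value of 1 in 4 or more mice, with Benjamini-Hochberg adjustment over all of them. Fold changes are on this scale and understate those of low genes. The fit was tested on simulated data. edgeR 4.0.16 and DESeq2 1.42.0 were alternatives on the reads. Single genes were tested by exact permutation in Python 3.11.15. The members and lists were chosen with earlier results of these data known. Genes named with values are the core subunits, the 3 highest and 3 lowest per length, the 3 largest fold changes each way, Ndufa4 and Ndufa4l2; others are the ends of lists. The values of 1 gene are not reported here, and it stays in the counts and medians. Intervals and floors cover counting error only where they rest on reads, which carry no molecular identifiers.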

Additional observations from a re-analysis of the deposited data

Results flagged for a closer look

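In 4 of 82 groups of 4 mice examined, 1 mouse lay far from the other 3, and chance alone would set apart about 4. Ndufa8, a proximal-arm subunit, was at 356 in MI4KO mouse 3, with a gap to the next mouse of 0.951 of the group's whole log2 range. Ndufs8 was at 277 in MI4KO mouse 3 (gap 0.945), and Ndufv3 was at 204 in MI4KO mouse 3 (gap 0.928). Ndufs5, a proximal-arm subunit, was at 164 in flox mouse 1 (gap 0.895). The 3 values of MI4KO mouse 3 are the highest of all 8 mice, and this is the mouse in which all 37 genes lay above their own mean.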

How the results depend on the processing

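The number of the 37 genes at an unadjusted p under 0.05 was 0 under every alternative but the removal of flox mouse 1 and MI4KO mouse 3 together, which gave 2. The median log2 fold change was between -0.058 and 0.053 with single mice left out. Genes that did not overlap between groups numbered 0 to 2 with single mice left out and 14 without both mice (37.8%, against 10.8% of all genes). By median, these were the lowest flox and the highest MI4KO mouse for the 37 genes. Without both, the median of the assembly factors was -0.078, and 1 gene of complexes II to V (Cox7a1) and 1 regulator (Ppargc1a) passed the unadjusted limit. With single mice left out, 0 to 1 assembly factors (Ndufaf4) and 0 to 1 regulators (Ppargc1a without flox mouse 1, where 3.71% of all genes passed, or Ppargc1b without MI4KO mouse 4, log2 fold change -0.39) passed it. Ndufaf4 passed without MI4KO mouse 4 (log2 fold change 0.22), where 5.21% of all genes did. With library-size scaling 1 assembly factor (Ndufaf4, log2 fold change 0.20) and 1 regulator (Gabpa) passed, and Gabpa also with median-of-ratios scaling and with edgeR, 1 regulator each (log2 fold change 0.15 to 0.18). Of all genes, 3.32%, 3.33% and 3.06% passed under these settings in that order. The median deviation in flox mouse 3 was -0.039 and in MI4KO mouse 2 it was 0.050 with library-size scaling. The median flox level was 281 per kilobase, 241 without division by length and 333 with the principal transcript. Causes were not tested. Another pseudocount, no filter, limma without the trend or robust, and the mouse-number covariate changed no count of calls among these lists. No paired analysis was possible because the labels carry only each animal's own number, which no mouse of the other group shares. With 4 mice a group, differences inside the 95% intervals are not excluded by these data.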

Other observations

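Relative to the median of the 37 genes in the same mouse, the genes that departed most in 1 mouse were Ndufa4l2, at -0.42 in MI4KO mouse 1 on the log2 scale, Ndufb8, at 0.20 in MI4KO mouse 1, Ndufs1, at 0.18 in MI4KO mouse 4, and Ndufb3, a distal-arm subunit, at 0.16 in MI4KO mouse 1. Ndufa4l2 has the fewest reads of the 37 genes, 88 in its lowest mouse.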
